A study of Saccharomyces cerevisiae with 6 samples.

Results

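The genes of yeast meiosis and spore formation were examined in budding yeast during growth, when the programme is normally off. A set of 45 genes was taken by name: 4 regulators of the programme, 17 early genes of recombination and chromosome pairing, 13 middle genes and 11 mid-late and late genes of spore formation. All 45 were measured, among 5656 genes that had a probe set assigned to 1 gene. The data are 6 single-colour arrays of total RNA, 3 from a strain carrying a mutant histone H2B, called H2B 3-32, and 3 from the wild-type strain. The mutant name refers to residues 3 to 32 of H2B, in its amino-terminal tail. For both strains the cells were in mid-log growth in rich medium (YPD). The labels state no strain background, mating type or ploidy, nor how H2B is carried, and wild-type array 3 also served further H2B mutants per its title. Whether replicates came from separate cultures is not stated, and the p-values then cover only array-to-array spread, which may be technical.

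Meiosis in budding yeast starts when cells with both mating types run out of nitrogen and a fermentable sugar. Ime1 then switches on the early genes, which in growing cells are held down by Ume6 together with the Sin3-Rpd3 histone deacetylase. Ndt80 later switches on the middle genes, many of which are held down during growth by Sum1 and the deacetylase Hst1. Late genes build the spore wall. Because both blocks act through chromatin, the comparison asks whether any class is released when the H2B tail is altered.

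HTB1, one of the H2B genes, checked the labels. It had signals of 16.1, 19.4 and 15.2 on mutant arrays 1, 2 and 3, against 1371.8, 1138.4 and 1191 on wild-type arrays 1, 2 and 3. Which part of the gene its probe set covers is unknown here. HTB2, the other H2B gene, averaged 4.3 ± 1.49 in mutant and 4.47 ± 0.902 in wild type (SD, n = 3 each). It stood at percentile 3.43 of all genes. Of the list of a mating type markers 6 of 7 genes lay above the 20th percentile of all genes' mean log2 signals, with a summed signal of 1845 to 2622 in mutant and 2293 to 3221 in wild-type cells. The 4 alpha mating type markers summed to 60.2 to 74.8 in mutant and 58.2 to 72.1 in wild-type cells, and 1 of them lay above that percentile. STE3, the receptor that defines alpha cells, was at 4.83 ± 1.32 in mutant and 5.63 ± 0.777 in wild type (SD, n = 3 each). The haploid list summed to 935 to 1096 in mutant and 992 to 1132 in wild type, and the starvation list to 472 to 679 in mutant and 567 to 616 in wild type, with 7 of 9 and 7 of 10 genes above the percentile. Among all these marker genes, 1 was called lower with the replicate number as a block and 0 higher. It is BAR1, the protease of a cells that degrades alpha factor, at 154 ± 23.3 in mutant and 238 ± 17.6 in wild type (SD, n = 3 each; log2 difference, mutant minus wild type after an offset of 2.7 was added, -0.63, limma adjusted p = 0.0119 with the block and 1 without). The a mating type list had a median log2 difference of -0.33. Beside BAR1, its genes STE2 (-0.33), MFA1 (-0.48), MFA2 (-0.31) and AGA2 (-0.51) were lower in each pair but not called. STE6 (0.14) and ASG7 (0.36) had positive differences. Of all genes 24.6% were lower in each pair. In the other 3 lists the smallest p with the block belonged to SAG1 and MF(ALPHA)2 (alpha; log2 differences -0.26 and 0.26), GPA1 and NEJ1 (haploid; -0.25 and -0.33) and SPG4 and SSA3 (starvation; -0.72 and -0.38), and none of these was called. Arrays 3 of both strains stood apart from the others, with spiked control signals averaging 98.8 in mutant and 102 in wild type, against 345 to 455 on the other 4 arrays. All signals are the authors' MAS5 intensities on a linear scale, and their detection calls were not used here.

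Nearly all of the programme lay at the bottom of the signal range in both strains. Of the 45 genes, 41 had a mean level below the 20th percentile of all genes, 35 lay below the 10th, and SPR6 alone lay above the median. The median position was at percentile 5.37. On single arrays the share of the 45 genes above that array's own 20th percentile was 13.3%, 13.3% and 11.1% on mutant arrays 1, 2 and 3, against 6.67%, 13.3% and 8.89% on wild-type arrays 1, 2 and 3. These are 6, 6 and 5 genes in mutant and 3, 6 and 4 in wild type, so the strains overlap. Probe sets bind their targets with different strength, and a position in this order describes signal, not numbers of transcripts. The plot of all signals shows the same crowding at the low end.

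**Figure D1:**
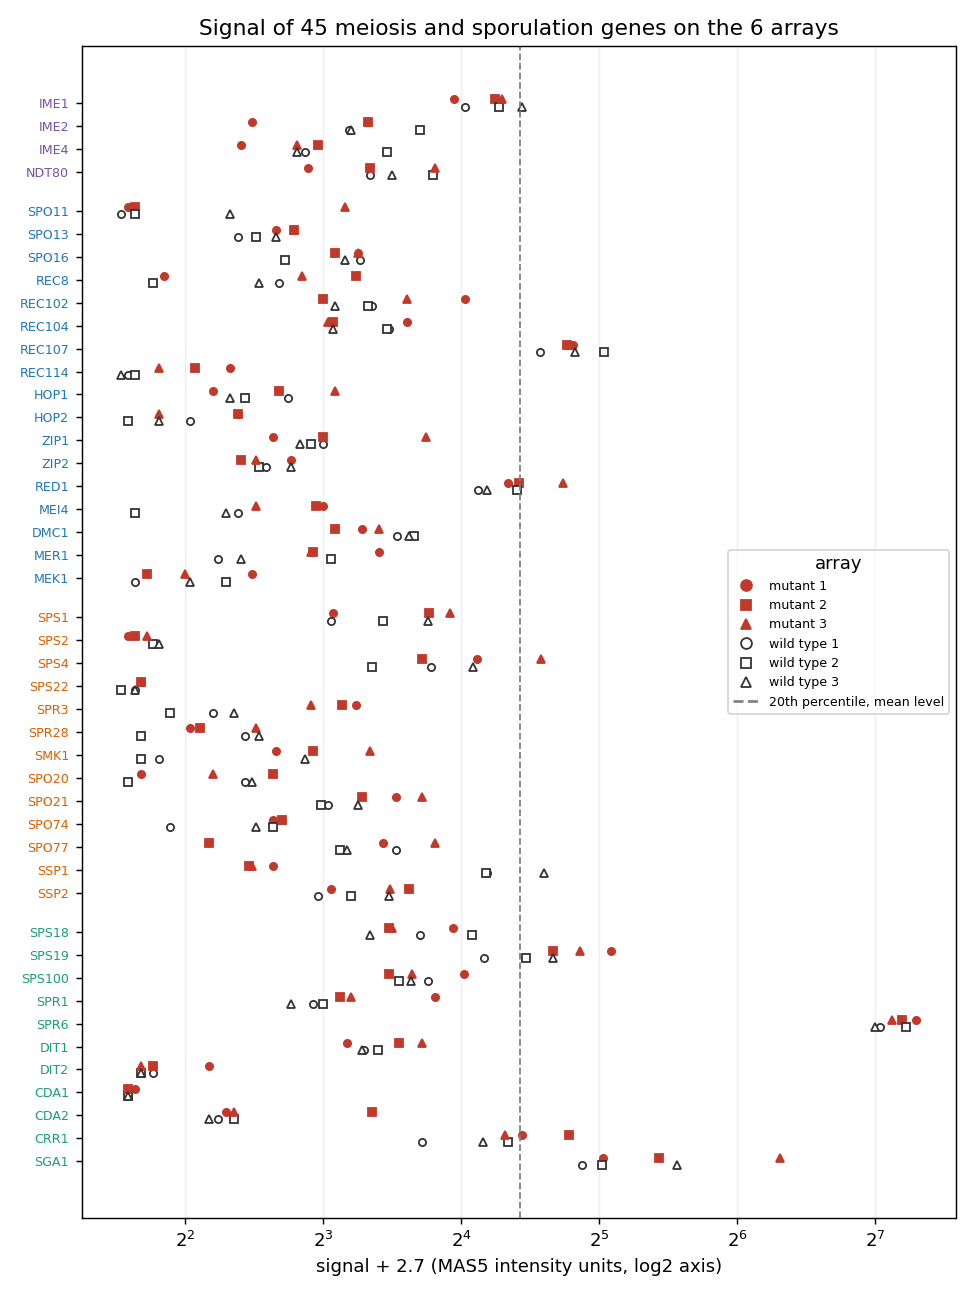
Signal of each of the 45 genes (rows, grouped from top to bottom as regulators, early, middle, and mid-late and late genes) plus the offset of 2.7, on a log2 axis; filled red symbols are the mutant arrays, open symbols the wild-type arrays. The dashed line marks the 20th percentile of mean level (signal 18.8), and SPR6, SGA1, SPS19 and REC107 are the 4 genes whose mean lies to its right.

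No early, middle or late gene was called higher in the mutant, and 1 middle gene was called lower with the replicate block. Differences below are mutant minus wild type on the scale log2(signal + 2.7), which understates the change of dim genes. Tests are limma fits over all 5656 genes with Benjamini-Hochberg adjustment. Intervals are 95% intervals of single genes from the fit with the group only, not adjusted for the number of genes. An interval that leaves out 0, for a gene picked by the size of its difference, is therefore not a call. The fit with the group only called 0 of the 45 genes at an adjusted p under 0.05, with 1 of all genes called (0.0177%), and 5 of the 45 against 158 of all genes (2.79%) had an unadjusted p under 0.05. With the replicate number as a block it called 1 of the 45, SSP1, which was lower, with 1.4% of all genes and 0.884% of genes below the 20th percentile called in either direction.

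SSP1, which encodes a protein of the coat at the leading edge of the growing prospore membrane, showed the largest difference of the 45. Its signals were 3.5, 2.8 and 2.9 on mutant arrays 1, 2 and 3, against 15.5, 15.4 and 21.5 on wild-type arrays 1, 2 and 3. The groups were far apart, and every mutant value was close to the 10th percentile of all probe sets. In bulk RNA, fewer cells with a transcript and less of it per cell cannot be told apart. SSP1 averaged 3.07 ± 0.379 in mutant and 17.5 ± 3.49 in wild type (SD, n = 3 each), a log2 difference of -1.79 (95% interval -2.28 to -1.30). The difference was -1.55, -1.72 and -2.11 in pairs 1, 2 and 3, and among all 5656 genes its difference was the lowest but 1, after HTB1. The limma adjusted p was 8.14e-04 with the replicate block and 0.109 without it, and with the block it was 0.0114, 0.0135 and 0.0447 when pair 1, 2 or 3 was left out. Over 23 alternative settings the difference ranged from -2.20 to -1.30 and the limma adjusted p from 1.42e-05 to 0.991. Of these 13 called it, among them every setting with the block and, without the block, quantile normalization (limma adjusted p = 0.0206) and scaling to a common median (limma adjusted p = 0.0388). It was not called without the block when any 1 array was left out.

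The wild-type signal of SSP1 was itself low: on wild-type arrays 1, 2 and 3 it lay just below the 20th percentile of that array, at 16.7, 17.1 and 22.4. Averaged over both strains the gene stood at percentile 7.74, so a filter on dim genes removes it. Whether a signal of this size lies above background on these arrays, and whether it reports SSP1 messenger RNA, was not tested. The neighbours of SSP1 were looked up after its value was seen, with gene order from the RefSeq R64 table. GND1, an enzyme of the pentose phosphate pathway on the lower-coordinate side, averaged 1054 ± 90.9 in mutant and 1035 ± 130 in wild type (SD, n = 3 each). On the other side PFS1, a sporulation gene, averaged 1.5 ± 1.14 in mutant and 2.43 ± 1.01 in wild type (SD, n = 3 each). Neither neighbour was called in the fit with the block (limma adjusted p = 0.92 and 0.649). ADY3 and DON1, of the same coat, were not called either. ADY3 had a log2 difference of -0.10 (limma adjusted p = 0.833 with the block) and DON1 of -0.01 (limma adjusted p = 0.989 with the block). IRC10, also of this coat but in none of the lists used here, had a log2 difference of -0.37. Whether the coat genes changed as a set was not tested.

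**Figure D2:**
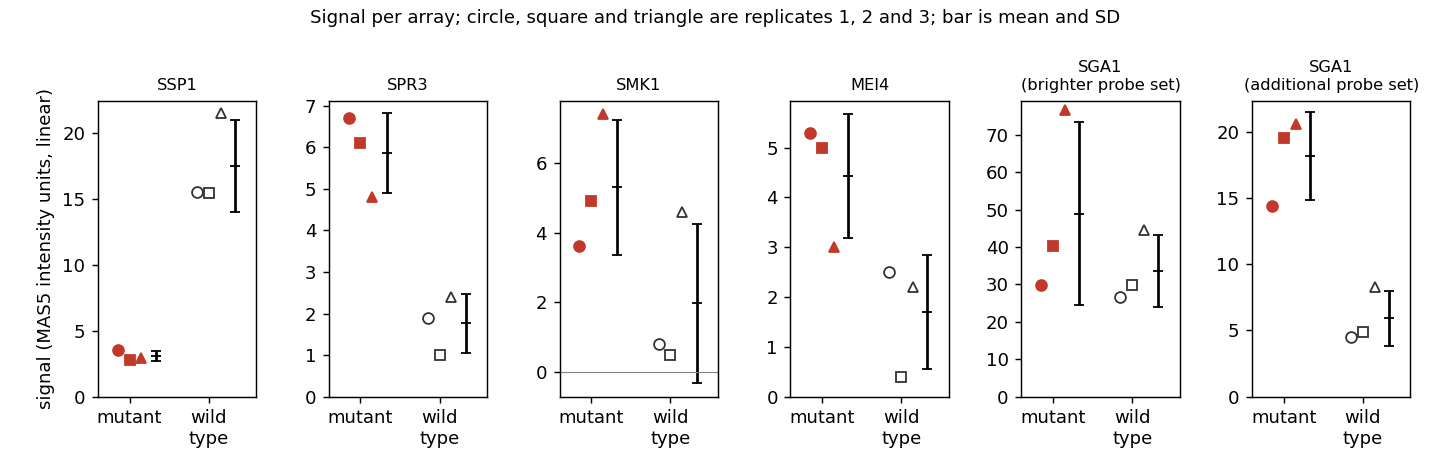
Signals on a linear axis in intensity units for SSP1, SPR3, SMK1, MEI4 and both probe sets of SGA1 (one panel each, own scale), mutant to the left of wild type; symbols are arrays and the bar is mean ± SD (n = 3). SSP1 is at 2.8 to 3.5 in mutant and 15.4 to 21.5 in wild type, while the other panels have mutant means above wild-type means.

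The regulators stood at low signals and were not called. IME1, the master activator, had signals of 12.7, 16.2 and 16.9 on mutant arrays 1, 2 and 3, against 13.6, 16.6 and 19 on wild-type arrays 1, 2 and 3, and the groups overlapped. Its log2 difference was -0.09 (95% interval -0.59 to 0.42). IME2, a kinase that drives entry into and progress through meiosis, read 2.9, 7.3 and 7.3 in mutant, against 6.4, 10.3 and 6.5 in wild type (log2 difference -0.32, interval -1.01 to 0.37). Mutant array 1 was its lowest value, and the groups overlapped.

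IME4, a methyltransferase of messenger RNA, had 2.6, 5.1 and 4.3 in mutant, against 4.6, 8.3 and 4.3 in wild type (log2 difference -0.32, interval -0.93 to 0.29). NDT80, the activator of the middle genes, had 4.7, 7.4 and 11.3 in mutant, against 7.4, 11.2 and 8.6 in wild type (log2 difference -0.20, interval -0.86 to 0.46). Both overlapped between strains. Of the 4 regulators 0 had a positive difference, with a class median of -0.26, and the pair medians were -0.46, -0.42 and 0.06, so pair 3 did not share the direction of pairs 1 and 2. Without mutant array 1 the differences of IME1, IME2, IME4 and NDT80 were 0.02, -0.04, -0.16 and 0.03. Without wild-type array 2 those of IME2, IME4 and NDT80 were -0.15, -0.11 and -0.07, and without wild-type array 3 that of IME1 was 0.01.

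Early genes, which make and repair the programmed breaks of meiotic recombination and pair the chromosomes, ranged in signal between 0.3 and 25.3 in mutant and between 0.2 and 30 in wild type. REC107, a partner of the break-making enzyme Spo11, was the only early gene with a mean level above the 20th percentile. It read 25.3, 24.5 and 24.9 on mutant arrays 1, 2 and 3, against 21.1, 30 and 25.6 on wild-type arrays 1, 2 and 3, and the mutant values lay inside the wild-type range (log2 difference -0.02, interval -0.49 to 0.45). Its further probe set averaged 7.1 ± 0.866 in mutant and 7.13 ± 1.71 in wild type (SD, n = 3 each). RED1, a protein of the chromosome axis, lay just below that threshold at percentile 19.2, with a mean of 20 ± 3.4 in mutant and 16.2 ± 2 in wild type (SD, n = 3 each).

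MEI4, also needed for break formation, had the largest early difference. Its values were 5.3, 5 and 3 on mutant arrays 1, 2 and 3, against 2.5, 0.4 and 2.2 on wild-type arrays 1, 2 and 3, with every mutant array above every wild-type array. The log2 difference was 0.72 (interval 0.10 to 1.33, rank 32 from the highest of all genes), and neither fit called it (limma adjusted p = 0.198 with the block and 1 without). A fainter probe set of MEI4 averaged 0.633 ± 0.681 in mutant and 0.533 ± 0.757 in wild type (SD, n = 3 each) and its groups overlapped, so the difference was seen with the brighter one alone.

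REC114, another partner of Spo11, was the other early gene with all mutant arrays above wild type. It averaged 1.53 ± 0.751 in mutant and 0.3 ± 0.1 in wild type (SD, n = 3 each), below the offset of 2.7 in both strains. MER1, which promotes splicing of meiotic transcripts, had 7.9, 4.9 and 4.8 in mutant, against 2, 5.6 and 2.6 in wild type, with overlap (log2 difference 0.52, interval -0.13 to 1.16). DMC1, the meiotic strand exchange protein, was the early gene with the lowest difference, at 7, 5.8 and 7.9 in mutant, against 8.9, 9.9 and 9.6 in wild type (log2 difference -0.35, interval -0.80 to 0.11). All its mutant values lay below wild type and no fit called it (limma adjusted p = 0.391 with the block and 1 without), and a second probe set, dimmer and overlapping between strains, pointed the other way at 0.13.

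The remaining early genes overlapped between strains and had log2 differences between -0.10 and 0.38. Those are SPO11, which cuts the DNA, with 2.3 ± 3.38 in mutant and 0.967 ± 1.16 in wild type (SD, n = 3 each), where arrays 3 alone read above 1 in both strains. REC102 and REC104 act with Spo11, and HOP2 acts with Dmc1. HOP1 is an axis protein and MEK1 a meiotic kinase. REC8, the meiotic cohesin subunit, had pair differences of -0.83, 1.47 and 0.31, the widest scatter of an early gene. ZIP1 forms the central part of the synaptonemal complex, ZIP2 and SPO16 start its assembly, and SPO13 helps to keep sister chromatids together in the first division. ZIP1 was at 6.5 ± 3.75 in mutant and 4.83 ± 0.451 in wild type (SD, n = 3 each), with mutant array 3 at 10.7.

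Middle genes, which form the prospore membrane and signal its closure, lay below the 20th percentile of mean level without exception. SPR3, a sporulation-specific septin, had the largest positive difference of the 45 genes. It read 6.7, 6.1 and 4.8 on mutant arrays 1, 2 and 3, against 1.9, 1 and 2.4 on wild-type arrays 1, 2 and 3, and the groups did not overlap. Its log2 difference was 0.95 (interval 0.46 to 1.43). The limma adjusted p was 0.0668 with the block and 0.974 without, so it was not called. It was called in 1 of 23 alternatives (the block with scaling to a common median, limma adjusted p = 0.0314), and both groups sat within a few units of the offset.

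SMK1, the MAP kinase of spore wall assembly, had 3.6, 4.9 and 7.4 on mutant arrays 1, 2 and 3, against 0.8, 0.5 and 4.6 on wild-type arrays 1, 2 and 3. Wild-type array 3 reached into the mutant range, although each mutant array exceeded the wild-type array of its own number. The log2 difference was 0.85 (interval 0.03 to 1.68, rank 17 from the highest of all genes), with a limma adjusted p of 0.0996 with the block and 1 without. SSP2, which activates Smk1, averaged 7.9 ± 2.07 in mutant and 6.67 ± 1.66 in wild type (SD, n = 3 each). SPR28, the partner septin of Spr3, averaged 2 ± 0.872 in mutant and 2.1 ± 1.4 in wild type (SD, n = 3 each).

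SPO21, a protein of the spindle pole body plaque where the prospore membrane starts, read 8.8, 7 and 10.4 in mutant, against 5.5, 5.2 and 6.8 in wild type, again without overlap (log2 difference 0.42, limma adjusted p = 0.307 with the block and 1 without). SPO74, of the same plaque, averaged 3.7 ± 0.173 in mutant and 2.5 ± 1.32 in wild type (SD, n = 3 each). SPS4 was higher in each of the 3 pairs, by 0.34, 0.36 and 0.49, and averaged 15.4 ± 5.44 in mutant and 10.9 ± 3.4 in wild type (SD, n = 3 each), but was not called (limma adjusted p = 0.278 with the block).

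SPS2 and SPS22, a pair of related cell wall proteins, stayed below 1 on every array. SPO20, a membrane fusion protein, had pair differences of -0.75, 1.05 and -0.28. SPS1, a kinase, and SPO77, which acts with it, had log2 differences of 0.17 and -0.13. The scatter of SPO77 was wide in mutant, at 7.07 ± 4.83 against 7.03 ± 1.54 in wild type (SD, n = 3 each), with mutant array 2 at 1.8. A dimmer probe set of SPO77, with overlapping groups, pointed the other way at 0.24.

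Late genes held 3 of the 4 genes with a mean level above the 20th percentile. SPR6, whose function is not known, was bright in both strains at 154.1, 143.3 and 136.7 on mutant arrays 1, 2 and 3, against 128.6, 146.4 and 125.3 on wild-type arrays 1, 2 and 3. It lay at percentile 74.3 of all genes, the groups overlapped, and its log2 difference of 0.12 had an interval of -0.20 to 0.43. SPS19, a peroxisomal reductase of fatty acid breakdown, read 31.2, 22.7 and 26.3 in mutant, against 15.2, 19.4 and 22.6 in wild type. Its lowest mutant value was just above its highest wild-type value (log2 difference 0.44, interval -0.09 to 0.96, limma adjusted p = 0.244 with the block). SPS18, its divergently oriented neighbour, averaged 9.87 ± 2.37 in mutant and 10.6 ± 3.41 in wild type (SD, n = 3 each). Dimmer probe sets of SPS18 had log2 differences of 0.20 and -0.41, with overlapping groups.

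SGA1, the glucoamylase that breaks down glycogen in sporulating cells, gave different pictures with its 2 probe sets. The brighter one read 29.9, 40.4 and 76.6 on mutant arrays 1, 2 and 3, against 26.6, 29.8 and 44.6 on wild-type arrays 1, 2 and 3. The groups overlapped, and the log2 difference was 0.44 (interval -0.39 to 1.26). It was higher in every pair, by 0.15, 0.41 and 0.75, with a limma adjusted p of 0.161 with the block. The size rests on single arrays: it was 0.08 without mutant array 3 and 0.72 without mutant array 1, and 0.86 with the mean of both probe sets.

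The genes of the spore wall itself were dim. DIT1 and DIT2 make dityrosine, and they averaged 8.57 ± 2.08 and 1 ± 0.7 in mutant, against 7.3 ± 0.436 and 0.567 ± 0.115 in wild type (SD, n = 3 each). CDA1 and CDA2, the chitin deacetylases, averaged 0.333 ± 0.0577 and 4.03 ± 3 in mutant, against 0.3 ± 0 and 2.07 ± 0.306 in wild type (SD, n = 3 each). The CDA2 mean rests on mutant array 2 at 7.5, and its probe set, the one among the 45 with a mark of incomplete or shared sequence in its name, has 2 further probe sets with log2 differences of 0.04 and -0.07.

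CRR1, a spore wall enzyme of the glycoside hydrolase type, was higher in each pair, by 0.73, 0.45 and 0.16, and averaged 20.3 ± 3.97 in mutant and 14.3 ± 3.61 in wild type (SD, n = 3 each). SPR1, a spore glucanase, had all mutant arrays above wild type, at 11.3, 6 and 6.5 in mutant, against 4.9, 5.3 and 4.1 in wild type. The limma adjusted p with the block was 0.227 for CRR1 and 0.298 for SPR1. SPS100, which acts in spore wall maturation, averaged 10.6 ± 2.64 in mutant and 9.83 ± 0.907 in wild type (SD, n = 3 each).

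Taken by class, small positive differences were frequent among early, middle and late genes, though none was called. Of the 45 genes, 33 had a positive difference (73.3%), against 40.2% of all 5656 genes and 53.2% of the 1131 genes below the 20th percentile. Most of the 45 are among those 1131, and the 1090 others had 52.5%. The dim genes are not matched for level: 35 of the 45 lay below the 10th percentile, against 530 of the 1090. The same limit holds for the further values of dim genes given below. The shares depend on scaling. With quantile normalization they were 68.9% of the 45 and 43.5% of all genes, and with scaling to a common median 75.6% and 47.2%. The median difference was 0.16 over the 45 genes, -0.05 over all genes and 0.01 over the 1131 dim genes, and the pair medians over the 45 genes were 0.15, 0.09 and 0.16. The median over the 45 genes was 0.26 without mutant array 1 and 0.10 without mutant array 3. Positive differences were found in 13 of 17 early genes, 10 of 13 middle genes, 10 of 11 late genes and 0 of 4 regulators. In all 3 pairs, 17 of the 45 were higher (37.8%; 12.6% of all genes and 16.9% of dim genes) and 4 were lower (8.89%; 24.6% of all genes and 13.5% of dim genes).

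All mutant arrays lay above all wild-type arrays for 7 of the 45 genes, where 3.13% of all genes and 5.04% of dim genes did so. These are MEI4, REC114, SPR3, SPO21, SPS22, SPS19 and SPR1. All mutant arrays lay below for 3, namely SSP1, DMC1 and SPS2, where 4.54% of all genes and 2.74% of dim genes did so. With the block, 9 of the 45 had a positive difference at an unadjusted p under 0.05 (5.46% of all genes, 6.45% of dim genes) and 1 a negative one (10.6% of all genes, 4.6% of dim genes).

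**Figure D3:**
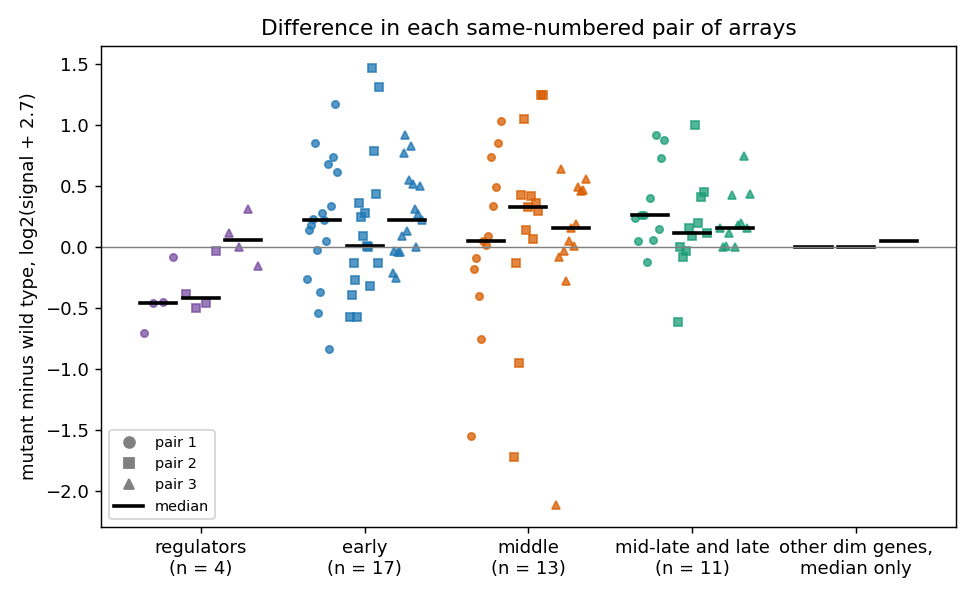
Mutant minus wild type, log2(signal + 2.7), for each gene in each same-numbered pair of arrays (circles, squares and triangles for pairs 1, 2 and 3), by class, with black bars for medians; the last column gives only the medians of the 1090 other genes below the 20th percentile. Early medians are 0.22, 0.01 and 0.22 in pairs 1, 2 and 3, and the 3 lowest middle points are SSP1.

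The early median was not on one side of the middle and late median in every pair. The median difference was 0.23 over the 17 early genes and 0.17 over the 24 middle and late genes, and the early median less the other was 0.02, -0.16 and 0.06 in pairs 1, 2 and 3. The sign varied between pairs, and the scatter between pairs exceeded the value of 0.06 from group means. Split further, the 13 middle genes had a median of 0.17 (0.05, 0.33 and 0.16 in pairs 1, 2 and 3) and the 11 late genes of 0.16 (0.26, 0.12 and 0.16). Without SSP1 the median of the middle and late genes was 0.17.

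**Figure D4:**
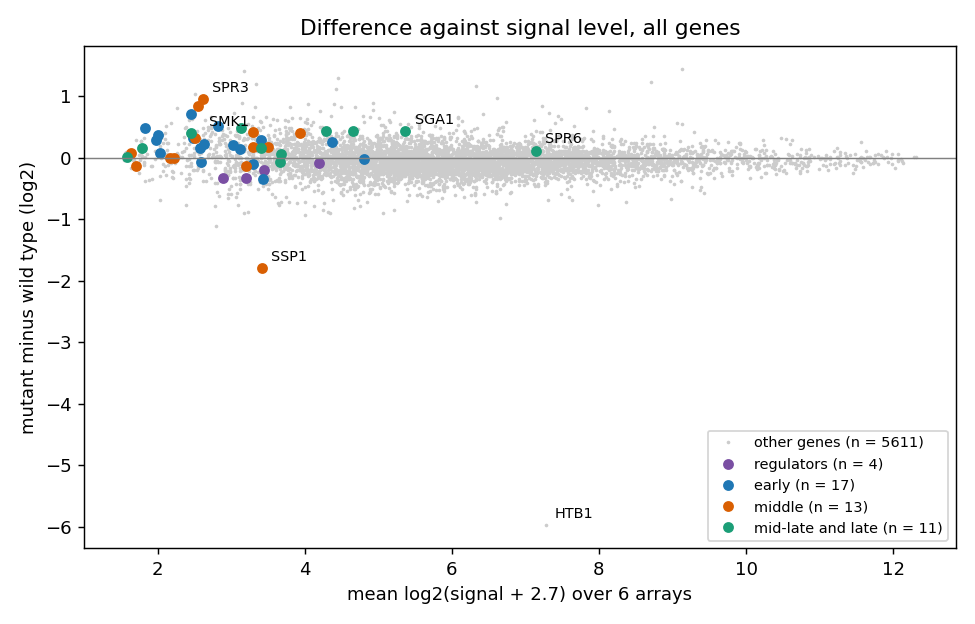
Mutant minus wild type (log2) against mean log2(signal + 2.7) for all 5656 genes, with the 45 genes coloured by class and the other 5611 in grey. Most of the coloured points lie at the left, within the spread of grey points at that level, and SSP1 at -1.79 and HTB1 at -5.98 lie below it.

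The genes that hold the programme down or start it were not called in either direction. A list of 44 measured repressors and upstream regulators had 0 genes called in both fits, a median difference of -0.01, and 1 higher and 3 lower genes at an unadjusted p under 0.05 with the block, where 5.46% of all genes were higher and 10.6% lower. UME6 averaged 32.2 ± 4.52 in mutant and 35 ± 6.89 in wild type, and SUM1 averaged 107 ± 4.83 in mutant and 113 ± 30.6 in wild type (SD, n = 3 each). HST1 was at 194 ± 7.23 in mutant and 196 ± 31.8 in wild type, and RPD3 at 95.3 ± 26.5 in mutant and 85.9 ± 13.7 in wild type (SD, n = 3 each). RME1, which represses IME1 in haploid cells, had 136.6, 131.2 and 203 on mutant arrays 1, 2 and 3, against 121.9, 130.3 and 212.3 on wild-type arrays 1, 2 and 3. Arrays 3 were high in both strains, and the log2 difference was 0.04. The smallest p in this list belonged to TPK3, a catalytic subunit of protein kinase A (log2 difference -0.31, limma adjusted p = 0.301 with the block), and to HOS4 of the Set3 complex (0.32, limma adjusted p = 0.307 with the block) and RGR1 of Mediator (-0.23, limma adjusted p = 0.307 with the block), which tied.

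A wider list of 57 measured meiotic and sporulation genes had 0 called with the group only and 2 higher and 0 lower with the block, against 36 higher and 43 lower of all 5656 genes (1.4% in either direction). Its median difference was 0.01. This list was less dim than the 45 genes, so its median is not one of silent genes alone. A mean level above the 20th percentile was found for 16 of the 57 (28.1%), among them CLB5 and SMC3. The share was 8.89% for the 45 genes. GSC2, a glucan synthase subunit used in the spore wall and under cell wall stress, read 62.6, 83.6 and 108.3 on mutant arrays 1, 2 and 3, against 45.5, 45.1 and 66.2 on wild-type arrays 1, 2 and 3 (log2 difference 0.66, limma adjusted p = 0.0213 with the block and 1 without). The groups of GSC2 overlapped. These are values of the brightest of its 7 probe sets, and the others were not compared. LOH1, which acts in the outer spore wall, read 5.3, 5.7 and 5.4 in mutant, against 1.2, 0.8 and 1.9 in wild type, without overlap (log2 difference 1.04, limma adjusted p = 0.0451 with the block and 0.448 without). LOH1 was dim in both strains. Without single pairs the block fit called 1 higher gene of this list without replicate 1, 1 lower gene without replicate 2, and 0 without replicate 3.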

How the data were processed

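Total RNA was labelled with biotin and hybridised to 6 arrays of 9335 probe sets. Each deposited value is a linear intensity of 1 probe set, computed by the authors using MAS5, as the submitters' processing notes record without version or settings. Column trimmed means were 125.1 to 125.2, so the values were used as deposited. Medians over all probe sets were less even, at 28.7 to 31 on arrays 1 and 2 and 40.5 and 40 on mutant and wild-type arrays 3. The 60 control probe sets were left out, and 6504 probe sets with 1 annotated gene gave 5656 genes, named through the RefSeq R64 table. The brightest probe set stood for a gene. An offset of 2.7, the 10th percentile, was added before log2, and no gene was filtered. Strains were compared with limma 3.58.1 (R 4.3.3; lmFit, eBayes with trend), two-sided, with the group only. All IDs of the 45 genes matched.

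The labels number replicates 1 to 3 in both strains. Deviations from group means correlated at 0.45, 0.49 and 0.82 in same-numbered pairs 1, 2 and 3. Mutant array 1 correlated with wild-type array 2 at 0.54, and mutant array 2 with wild-type array 1 at 0.39. Arrays 3 correlated with the other arrays of the opposite strain at -0.55 to -0.67. These values set arrays 3 apart, but do not show that arrays 1 and 2 are paired by number. Over the meiosis and sporulation genes alone, same-numbered pairs correlated at 0.11, -0.05 and 0.36. The pairing was taken from the labels, and the replicate block and all pair differences rest on it. The block leaves 2 residual degrees of freedom, against 10.3 in the variance prior.

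The genes, classes and lists were chosen with earlier results of these data known. Values on every array are given for the regulators, the genes above the 20th percentile, called genes and the 4 largest differences each way. Array values of SPO21, SPR1 and RME1 were added after their values were seen. The same holds for the naming of ADY3, DON1, IRC10, UME6, SUM1, HST1, RPD3 and RGR1. From the other lists, genes called in either fit, or the 2 with the smallest p where none was called, are named. The number of arrays limits the precision. The steps were tested on simulated data.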

Additional observations from a re-analysis of the deposited data

Results flagged for a closer look

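SGA1 has an additional probe set, dimmer than the one used, whose groups were separated. Its signals were 14.4, 19.5 and 20.6 on mutant arrays 1, 2 and 3, against 4.5, 4.9 and 8.3 on wild-type arrays 1, 2 and 3. It averaged 18.2 ± 3.31 in mutant and 5.9 ± 2.09 in wild type (SD, n = 3 each), a log2 difference of 1.29, with 1.25, 1.55 and 1.08 in pairs 1, 2 and 3. The brighter probe set of the same gene gave 0.44 with overlapping groups. The name of the dimmer probe set carries a mark of shared sequence, and which of its probes differ from those of the brighter one was not tested. It was picked out because its mutant arrays all exceeded wild type in data not used for the comparison of genes, and it has no test of its own.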

How the results depend on the processing

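Further settings added after the data were seen were the replicate block with other scalings, offsets or a pair left out, replicate 3 as a batch, and medians without SSP1. With the replicate block 79 genes were called (36 higher, 43 lower) against 1 without it, with 1 of the 45 genes and 2 of the wider list (SSP1, and GSC2 and LOH1); the block changed no other call of a gene compared in the report's lists of repressors or meiotic genes. With replicate 3 as a batch it was 75, 1 and 2. The block gave 145, 1 and 3 with quantile normalization, 143, 2 and 3 with scaling to a common median, 80, 1 and 2 with the offset at the 5th percentile, and 71, 1 and 2 with it at the 20th. Without the block, quantile normalization called 3 genes, median scaling 2, and a prior without trend 2, each with 1 of the 45. Leaving out any 1 array without the block left the count at 1 gene and 0 of the 45. With the block and without any 1 pair, counts ran from 14 to 25 for all genes and 0 to 1 for the wider list, with 1 of the 45 each time. Without replicate 3 of both strains 16 genes were called, 1 of them among the 45.

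The median of the 45 genes was 0.28 with dim genes filtered out (4 genes left), 0.20 and 0.12 with offsets at the 5th and 20th percentile, and 0.12 with quantile normalization. For middle and late genes it was 0.44, 0.21, 0.12 and 0.13 in these settings, 0.19 with median scaling and 0.21 without replicate 3. With the filter the early median was -0.02, from 1 gene, and the early less the other median was -0.46; it was -0.07 without replicate 3. Without any 1 array these medians ran from 0.10 to 0.26 for the 45 genes and 0.11 to 0.29 for middle and late genes. The share above the 20th percentile was 13.3% without replicate 3, and 22.2% and 4.44% for thresholds at the 10th and 30th percentile. REC107 changed sign with quantile normalization or median scaling (0.01 each, also with the block), without wild-type replicate 2 (0.09) and with the block without replicate 2 (0.10). IME1 did so without mutant replicate 1 (0.02) or wild-type replicate 3 (0.01), and NDT80 without mutant replicate 1 (0.03). Without single arrays or pairs REC107 ran from -0.15 to 0.10, IME1 from -0.20 to 0.02 and NDT80 from -0.45 to 0.03, and without single arrays alone REC107 and NDT80 reached -0.14 and -0.43. None of these was called, and the cause was not tested.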
